A study of Mus musculus with 10 samples.

Results

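The presynaptic vesicle release machinery was followed through 9 genes, chosen by name from the 55487 genes of a mouse expression table: Snap25, Stx1a, Vamp2, Syt1, Syn1, Unc13a, Rims1, Bsn and Pclo. Each name matched 1 gene, and all 9 passed the filter on low counts. RNA had been sequenced from GFP-positive cells that were sorted from brain 1 month after an adeno-associated virus (AAV) was placed in the dentate gyrus, a part of the hippocampus. There were 10 libraries in 3 groups. The cKO-mNLS group (n = 4) was TDP-43flox/flox::CamKIIcre/- and received AAV-FLEX-TDP-43mNLS-GFP. The cKO-GFP group (n = 3) had the same genotype and received AAV-FLEX-GFP. The NC-GFP group (n = 3) was CamKIIcre/- without floxed alleles in its label and received AAV-FLEX-GFP. All 3 groups thus carried CamKIIcre, a driver used for forebrain excitatory neurons, and a Cre-dependent (FLEX) vector with GFP. Each library was a pool of 3 to 4 animals, so p-values measure the spread between pools. The sources used here do not spell out mNLS, the age of the animals or the deleted part of the gene.

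Neurons release transmitter when a synaptic vesicle fuses with the presynaptic membrane. Fusion is driven by SNARE proteins, of which VAMP2 sits on the vesicle and syntaxin-1A and SNAP-25 on the plasma membrane, while synaptotagmin-1 senses the calcium that triggers it. The active zone proteins Munc13-1 (Unc13a) and RIM1 (Rims1) ready vesicles for fusion, the giant scaffolds bassoon (Bsn) and piccolo (Pclo) hold the site together, and synapsin-1 (Syn1) clusters the reserve vesicles. Tardbp encodes TDP-43, which binds RNA and acts in splicing and RNA stability. In human neurons it represses a cryptic exon of UNC13A, the counterpart of Unc13a.

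Library totals lay between 17164188 and 29204293 estimated counts, mitochondrial genes held 10.9% to 16.5% of them, and the correlation of log2 CPM across genes between replicates was 0.941 to 0.9751, where genes are not independent replicates. CPM is a gene's count relative to the library total, here the TMM-scaled total. Tardbp, the targeted gene, averaged 237 ± 68.5 CPM in cKO-mNLS (SD, n = 4), 117 ± 7.75 CPM in cKO-GFP and 131 ± 11.3 CPM in NC-GFP (SD, n = 3 each). In cKO-mNLS it exceeded cKO-GFP by 1.02 on the log2 scale (SE 0.196, edgeR adjusted p = 0.00643) and was not called in cKO-GFP against NC-GFP (-0.16, SE 0.205, adjusted p = 0.745). Viral reads may count toward it in cKO-mNLS, the group given the TDP-43mNLS vector. The GFP vector of the other groups has no TDP-43 in its label, and no loss of Tardbp was called in cKO-GFP. The reason was not tested and the deleted part of the gene is not given, so Tardbp does not check the genotype labels. Markers of non-neuronal cells were abundant in all sorted pools. The 10 oligodendrocyte markers summed to 5011 to 15037 CPM in cKO-mNLS, 8760 to 16197 CPM in cKO-GFP and 11493 to 17020 CPM in NC-GFP. The 6 excitatory neuron markers summed to 181 to 550.1 CPM in cKO-mNLS, 8.96 to 37.2 CPM in cKO-GFP and 8.81 to 13.9 CPM in NC-GFP, so the markers of the cells that the driver is used for were low in both GFP-vector groups.

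Promoters are shown for Syn1 and Bsn, which held the rarer of the motifs searched for, and for Stx1a, as an example of a member with a GC box. Of the 9 members, 7 had an entry in the RefSeq promoter table (GRCm38.p6), and the 250 bases before each start were read. Snap25 and Vamp2 are named only. Capitals mark the motif, and both strands were searched.

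Syn1 (chrX:20920919-20921168, minus strand): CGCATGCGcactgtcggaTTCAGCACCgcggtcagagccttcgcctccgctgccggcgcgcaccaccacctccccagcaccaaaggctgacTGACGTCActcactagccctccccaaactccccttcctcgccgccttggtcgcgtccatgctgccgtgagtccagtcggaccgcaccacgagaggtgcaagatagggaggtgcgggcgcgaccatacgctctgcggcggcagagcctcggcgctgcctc
Bsn (chr9:108190384-108190633, minus strand): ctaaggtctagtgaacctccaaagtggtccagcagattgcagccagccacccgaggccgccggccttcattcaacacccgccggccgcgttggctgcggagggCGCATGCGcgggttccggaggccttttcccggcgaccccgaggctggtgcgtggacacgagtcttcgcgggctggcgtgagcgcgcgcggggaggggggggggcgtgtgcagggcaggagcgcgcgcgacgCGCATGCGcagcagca
Stx1a (chr5:135023232-135023481, plus strand): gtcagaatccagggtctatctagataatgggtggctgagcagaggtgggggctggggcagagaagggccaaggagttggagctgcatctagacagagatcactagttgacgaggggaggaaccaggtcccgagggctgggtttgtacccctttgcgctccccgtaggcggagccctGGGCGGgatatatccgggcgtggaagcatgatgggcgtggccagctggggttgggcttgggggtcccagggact

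The Syn1 window held TTCAGCACC, the left part of the RE1 element bound by the neuronal repressor REST, 224 to 232 bases before the start. These letters occurred in 99 of 32851 promoters (0.301%). It also held TGACGTCA, the cyclic AMP response element, which 508 promoters held. The Bsn window held CGCATGCG, the core of the motif of the transcription factor NRF1, at 2 places, and the Syn1 window held it 243 to 250 bases before the start. Of all promoters, 509 (1.55%) held it. This core and the response element read the same on either strand, and no 2 matches overlapped. GGGCGG, the GC box, stood 69 to 74 bases before the start of Stx1a. It was in the promoters of 5 members (Pclo, Rims1, Stx1a, Syt1 and Unc13a) and in 32.7% of all promoters. These matches are letters in a window and show no binding.

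The first comparison set cKO-mNLS against cKO-GFP, which differ in the vector and share the genotype. All 9 release genes were higher in cKO-mNLS, and for each of them the lowest cKO-mNLS library lay above the highest cKO-GFP library. The rise ranged from 0.53 for Vamp2 to 4.30 for Syt1 on the log2 scale, with a median of 2.85. Of the 20379 genes tested, 8.93% were called higher and 13.3% had cKO-mNLS libraries that all lay above those of cKO-GFP. The median log2 fold change of all genes tested was -0.01. Calls are edgeR quasi-likelihood tests with Benjamini-Hochberg adjustment at 0.05. In sorted pools, fewer neurons and less RNA per neuron cannot be told apart.

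**Figure D1:**
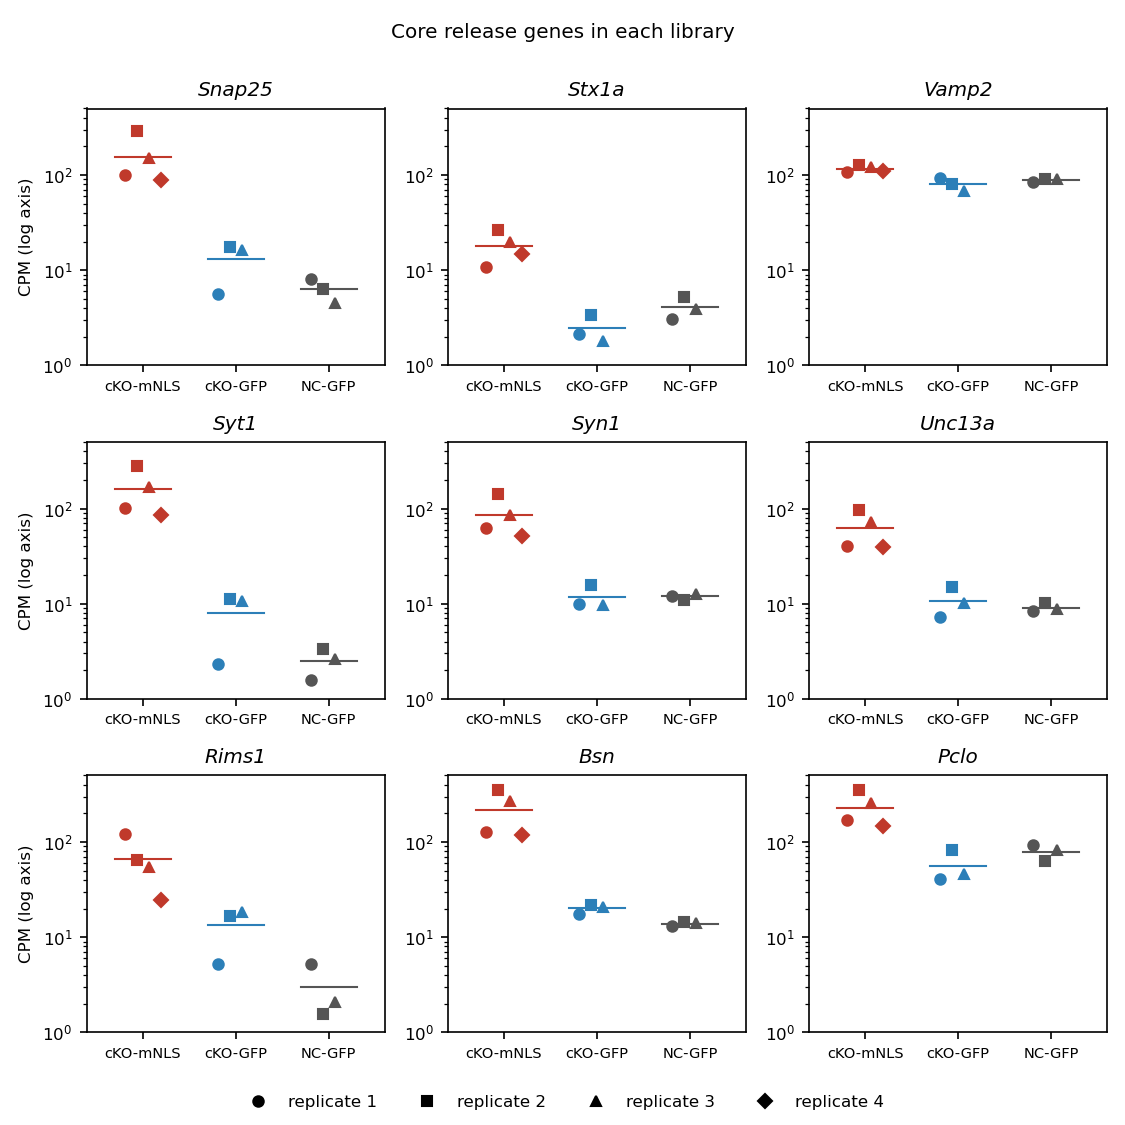
CPM of the 9 release genes in each library on a log axis; each point is 1 library, its shape gives the replicate, and the line is the group mean, with groups in the order cKO-mNLS, cKO-GFP, NC-GFP. The 4 cKO-mNLS libraries lay above all others for every gene, narrowly so for Vamp2 (107 CPM at the lowest against at most 92.6 CPM).

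The 3 SNARE genes rose by very different amounts. Snap25 (ENSMUSG00000027273.13; GRCm38/mm10 chromosome 2, 136713453 to 136782428, plus strand) stood at 98.9, 287, 150.1 and 87.6 CPM in cKO-mNLS, against 5.62, 17.5 and 16.5 CPM in cKO-GFP. The lowest cKO-mNLS pool was still several times the highest cKO-GFP pool, and the log2 fold change was 3.56 (SE 0.515, edgeR adjusted p = 0.00239). Stx1a (ENSMUSG00000007207.10; chromosome 5, 135023482 to 135051100, plus strand) stood at 10.9, 26.5, 19.9 and 14.8 CPM in cKO-mNLS, against 2.14, 3.39 and 1.81 CPM in cKO-GFP. It was the least counted of the 9 genes in cKO-mNLS, and its log2 fold change was 2.88 (SE 0.377, edgeR adjusted p = 0.00174). Vamp2 (ENSMUSG00000020894.16; chromosome 11, 69088490 to 69092384, plus strand) stood at 107, 127, 122 and 109.6 CPM in cKO-mNLS, against 92.6, 80.5 and 68.5 CPM in cKO-GFP. Vamp2 was thus well expressed in every pool, and its log2 fold change was 0.53 (SE 0.132, edgeR adjusted p = 0.0196). That call was lost without cKO-GFP replicate 3 (0.48, edgeR adjusted p = 0.0686) and when only the compared groups were fitted (0.53, edgeR adjusted p = 0.0538).

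Syt1, the calcium sensor of fast release, showed the steepest rise of the 9 genes. Syt1 (ENSMUSG00000035864.14; chromosome 10, 108497650 to 109010982, minus strand) stood at 102, 279, 167 and 85.9 CPM in cKO-mNLS, against 2.35, 11.3 and 10.6 CPM in cKO-GFP. Its log2 fold change was 4.30 (SE 0.611, edgeR adjusted p = 0.00239), a ratio of mean CPM of 19.7. Replicate 1 of cKO-GFP was lower than its 2 partners, and without any single library the log2 fold change lay between 3.92 and 4.69.

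Syn1 and the priming gene Unc13a rose by like amounts. Syn1 (ENSMUSG00000037217.15; chromosome X, 20860511 to 20921004, minus strand) stood at 62.0, 141, 86.5 and 52.0 CPM in cKO-mNLS, against 9.98, 15.9 and 9.65 CPM in cKO-GFP (log2 fold change 2.85, SE 0.341, edgeR adjusted p = 0.00154). Unc13a (ENSMUSG00000034799.16; chromosome 8, 71624417 to 71671757, minus strand) stood at 40.8, 95.7, 71.4 and 39.4 CPM in cKO-mNLS, against 7.21, 14.9 and 10.2 CPM in cKO-GFP (log2 fold change 2.52, SE 0.352, edgeR adjusted p = 0.00195). In both genes the replicate 2 pool was the highest of cKO-mNLS and of cKO-GFP. Both overlap genes of the opposite strand, and whether counting used the strand is not given. The gene Colgalt1, which overlaps the 3′ end of Unc13a, stood at 37.1 to 57.4 CPM in cKO-mNLS and 46.8 to 76.5 CPM in cKO-GFP. Araf overlaps the 3′ end of Syn1 and stood at 50.9 to 56.6 CPM in cKO-mNLS and 41.4 to 47.4 CPM in cKO-GFP. The inhibitor gene Timp1 lies within Syn1 and stood at 1.43 CPM or less in every library.

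Rims1 did not follow the library order of the other genes. Rims1 (ENSMUSG00000041670.17; chromosome 1, 22286251 to 22805994, minus strand) stood at 121, 65.4, 55.2 and 24.6 CPM in cKO-mNLS, against 5.24, 16.6 and 18.3 CPM in cKO-GFP. Its highest pool was replicate 1, whereas the other 8 genes were highest in replicate 2. Of all genes tested, 25.9% were highest in replicate 1, 25.5% in replicate 2, 23% in replicate 3 and 25.5% in replicate 4. Replicate 1 also stood apart in other measures, with 16.5% mitochondrial counts against 10.96% to 12.1% in the other cKO-mNLS pools. Its astrocyte marker sum was 4170 CPM against 1728 to 2777 CPM in the others, its endothelial sum 971 CPM against 304 to 688 CPM, and its oligodendrocyte sum of 5011 CPM was the lowest of the 4. Their part in the Rims1 values was not tested. The log2 fold change was 2.32 (SE 0.608, edgeR adjusted p = 0.0267), with an interval of 0.98 to 3.66. The call was lost without cKO-mNLS replicate 1 (1.86, edgeR adjusted p = 0.0573). It was also lost without cKO-GFP replicate 1 (2.01, adjusted p = 0.0833), replicate 2 (2.58, adjusted p = 0.0521) or replicate 3 (2.68, adjusted p = 0.0828), and without the low-count filter (2.38, adjusted p = 0.12).

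The scaffold genes Bsn and Pclo had the highest mean CPM of the 9 in cKO-mNLS. Bsn (ENSMUSG00000032589.14; chromosome 9, 108096022 to 108190384, minus strand) stood at 129, 351, 269 and 119 CPM in cKO-mNLS, against 17.4, 22.0 and 20.9 CPM in cKO-GFP. The cKO-GFP pools were close together, and the log2 fold change was 3.43 (SE 0.373, edgeR adjusted p = 0.00143). Pclo (ENSMUSG00000061601.15; chromosome 5, 14514918 to 14863459, plus strand) stood at 168, 348, 254 and 146 CPM in cKO-mNLS, against 40.4, 82.9 and 46.2 CPM in cKO-GFP. Pclo was counted well in the cKO-GFP pools too, and its log2 fold change of 2.02 (SE 0.341, edgeR adjusted p = 0.00382) was smaller than that of its partner scaffold. The difference between these genes' fold changes was not tested.

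The TDP-43cKO genotype was compared with the control genotype under the same GFP vector, in cKO-GFP against NC-GFP. None of the 9 release genes was called by edgeR, where 1.63% of all genes were called (0.53% higher and 1.1% lower). At an unadjusted p under 0.05 edgeR counted 2 of them higher, as it did for 9.73% of all genes. DESeq2 called the same 2 higher after adjustment, with 3.2% of all genes called higher, and limma voom called 0, with 3.36% called higher. These were Rims1 and Syt1. Rims1 stood at 5.24, 16.6 and 18.3 CPM in cKO-GFP, against 5.26, 1.57 and 2.09 CPM in NC-GFP (log2 fold change 2.16, SE 0.653, edgeR adjusted p = 0.131, DESeq2 adjusted p = 0.00771). Without NC-GFP replicate 1, its highest control pool, the Rims1 value was 2.84, and it was not called by edgeR without any single library. Syt1 stood at 2.35, 11.3 and 10.6 CPM in cKO-GFP, against 1.59, 3.33 and 2.65 CPM in NC-GFP (log2 fold change 1.67, SE 0.607, edgeR adjusted p = 0.196, DESeq2 adjusted p = 0.0340). In both genes the cKO-GFP replicate 1 pool lay within the NC-GFP range and the other 2 pools lay above it.

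Snap25 had the same layout, with 5.62, 17.5 and 16.5 CPM in cKO-GFP against 8.15, 6.32 and 4.58 CPM in NC-GFP. Its interval of -0.06 to 2.15 on the log2 scale included no change (1.05, SE 0.502, edgeR adjusted p = 0.323). The excitatory marker sum moved with these pools, at 8.96 CPM in cKO-GFP replicate 1, 37.2 CPM in replicate 2 and 22.6 CPM in replicate 3. Astrocyte markers were called lower in 5 of 10 genes of this comparison, and inhibitory neuron markers summed to 97.8 to 128 CPM in cKO-GFP and 258 to 386 CPM in NC-GFP. The part of these markers in the values was not tested. Of the 9 genes, cKO-GFP replicate 2 exceeded every NC-GFP pool in 6, replicate 3 in 5 and replicate 1 in 2. Over all genes tested, replicate 2 did so in 31%, replicate 3 in 37.5% and replicate 1 in 32.7%.

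The scaffolds Bsn and Pclo pointed opposite ways in this comparison, both without a call. Bsn stood at 17.4, 22.0 and 20.9 CPM in cKO-GFP, against 13.0, 14.5 and 14.0 CPM in NC-GFP. It was the 1 release gene whose groups did not overlap, as 13.6% of all genes did upward, and its log2 fold change was 0.54 (SE 0.357, edgeR adjusted p = 0.487). Pclo stood at 40.4, 82.9 and 46.2 CPM in cKO-GFP, against 92.6, 62.7 and 82.0 CPM in NC-GFP (-0.48, SE 0.343, edgeR adjusted p = 0.519). Stx1a had a log2 fold change of -0.73 (interval -1.55 to 0.08), Vamp2 of -0.14 (-0.45 to 0.16), Syn1 of -0.01 (-0.74 to 0.72) and Unc13a of 0.24 (-0.53 to 1.01). The intervals of these 4 genes all included no change.

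**Figure D2:**
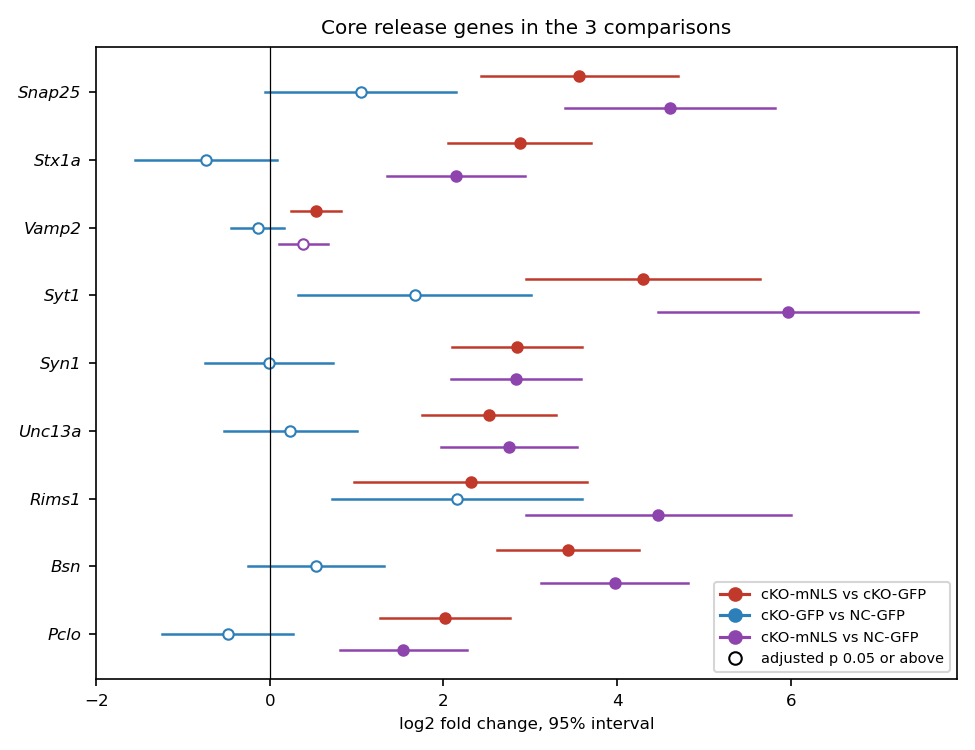
Log2 fold change of each release gene in the 3 comparisons, with 95% intervals from the edgeR fit; filled points were called at an adjusted p under 0.05 and open points were not. Both comparisons of cKO-mNLS lie to the right of 0 for all 9 genes, from 0.39 for Vamp2 to 5.97 for Syt1, and the points of cKO-GFP against NC-GFP are all open.

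The cKO-mNLS pools were also set against NC-GFP, which shares the cKO-mNLS and NC-GFP libraries with the comparisons above. Of the 9 genes, 8 were higher in cKO-mNLS, where 8.23% of all genes were called higher. The log2 fold changes were 5.97 for Syt1 (SE 0.677, edgeR adjusted p = 0.00076), 4.61 for Snap25, 4.48 for Rims1, 3.97 for Bsn, 2.84 for Syn1, 2.76 for Unc13a, 2.14 for Stx1a and 1.54 for Pclo. Syt1 averaged 159 ± 87.7 CPM in cKO-mNLS (SD, n = 4) and 2.52 ± 0.88 CPM in NC-GFP (SD, n = 3), a ratio of 62.8. Rims1 was at 4.48 with all libraries and at 5.23 without NC-GFP replicate 1, its highest control pool. Pclo (SE 0.334, edgeR adjusted p = 0.0125) lost its call without NC-GFP replicate 2 (1.42, adjusted p = 0.0657) or replicate 3 (1.56, adjusted p = 0.0544). Vamp2 averaged 116 ± 9.67 CPM in cKO-mNLS (SD, n = 4) and 88.8 ± 3.24 CPM in NC-GFP (SD, n = 3). Its groups did not overlap, as was so upward for 13.9% of all genes, and it was not called (0.39, SE 0.132, edgeR adjusted p = 0.0827). DESeq2 called it (0.41, adjusted p = 0.0259), as did edgeR with a stricter filter (0.44, adjusted p = 0.0456), with the 2 groups alone (0.42, adjusted p = 0.0480) and without cKO-GFP replicate 3 (0.41, adjusted p = 0.0492).

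Levels per transcript length were read from the authors' TPM values, in which genes can be set against each other. In cKO-mNLS the order was Snap25 (50.3 ± 24.6 TPM), Vamp2 (33.8 ± 2.31 TPM), Syt1 (20.3 ± 8.92 TPM), Rims1 (14.3 ± 12.04 TPM), Syn1 (11.5 ± 4.18 TPM), Stx1a (7.54 ± 3.17 TPM), Pclo (6.82 ± 1.93 TPM), Unc13a (6.68 ± 2.31 TPM) and Bsn (5.73 ± 2.33 TPM; SD, n = 4 for each). The ranges of all neighbours in that order overlapped. In cKO-GFP it was Vamp2 (22.3 ± 6.07 TPM), Snap25 (3.68 ± 1.89 TPM), Rims1 (2.43 ± 1.26 TPM), Stx1a (2.08 ± 0.637 TPM), Pclo (1.502 ± 0.748 TPM), Syn1 (1.40 ± 0.551 TPM), Unc13a (1.00 ± 0.44 TPM), Syt1 (0.826 ± 0.456 TPM) and Bsn (0.512 ± 0.0849 TPM; SD, n = 3 for each). In NC-GFP it was Vamp2 (26.0 ± 5.54 TPM), Stx1a (2.90 ± 0.971 TPM), Pclo (2.32 ± 0.9 TPM), Snap25 (2.14 ± 0.97 TPM), Syn1 (1.57 ± 0.428 TPM), Rims1 (0.923 ± 0.817 TPM), Unc13a (0.74 ± 0.067 TPM), Bsn (0.358 ± 0.0626 TPM) and Syt1 (0.329 ± 0.0852 TPM; SD, n = 3 for each). In both GFP-vector groups Vamp2 stood clear of its neighbour, and in NC-GFP the ranges of Unc13a and Bsn did not overlap, while all other neighbours overlapped. Syt1 was the lowest release gene in NC-GFP and the third highest in cKO-mNLS. The place of Stx1a depends on the average transcript length behind its TPM. That length was 446 to 633 bases in cKO-GFP and 520 to 842 bases in NC-GFP, against 853 to 1601 bases in cKO-mNLS. The shortest annotated Stx1a transcript has 550 bases, so its rank in the GFP-vector groups is uncertain. The 9 genes together held 109 to 218 TPM in cKO-mNLS, 27.6 to 44.2 TPM in cKO-GFP and 27.8 to 44.8 TPM in NC-GFP.

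Within cKO-mNLS most, but not all, of the release genes shared an order across pools. In 6 of the 9 genes the order from high to low was replicate 2, 3, 1 and 4, which was also the order of the excitatory marker sum. Stx1a and Vamp2 were lowest in replicate 1, and Rims1 was highest there. The share of all genes with the order 2, 3, 1 and 4 was not counted. With group means removed over all 10 libraries, the correlation of log2 CPM between 2 release genes ran from -0.507 (Vamp2 and Rims1) to 0.943 (Syn1 and Pclo). Counts were also expressed as a ratio to Snap25 in the same library, a measure of constancy that is not scaled for length. The Syt1 ratio stayed between 0.972 and 1.11 in the 4 cKO-mNLS pools (coefficient of variation 6.39%), although Syt1 itself varied 3.25 times between the highest and the lowest pool. The Syn1 ratio varied by 10.2%, Unc13a by 14.8%, Pclo by 15.1% and Bsn by 18.1%. Stx1a varied by 26.2% and Vamp2 by 39.3%. Rims1 had a ratio of 1.22 in replicate 1 and of 0.228 to 0.368 in the other pools, a coefficient of variation of 89.3%.

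For some release genes the ratio to Snap25 also differed between groups. The Vamp2 ratio to Snap25 averaged 0.895 ± 0.352 in cKO-mNLS (SD, n = 4), 8.41 ± 6.98 in cKO-GFP and 14.9 ± 4.73 in NC-GFP (SD, n = 3 each), with no overlap between cKO-mNLS and either other group. For Pclo the ratio averaged 1.57 ± 0.237 in cKO-mNLS (SD, n = 4), 4.91 ± 2.20 in cKO-GFP and 13.1 ± 4.26 in NC-GFP (SD, n = 3 each). Syt1 went the other way, at 1.02 ± 0.0655 in cKO-mNLS (SD, n = 4), 0.569 ± 0.13 in cKO-GFP and 0.434 ± 0.209 in NC-GFP (SD, n = 3 each). The Unc13a ratio was lower in cKO-mNLS (0.333 to 0.476) than in cKO-GFP (0.62 to 1.28). For Stx1a, Syn1, Bsn and Rims1 the ranges of cKO-mNLS and cKO-GFP overlapped. Those of Bsn and Rims1 also overlapped between cKO-mNLS and NC-GFP. These ratios were not tested.

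**Figure D3:**
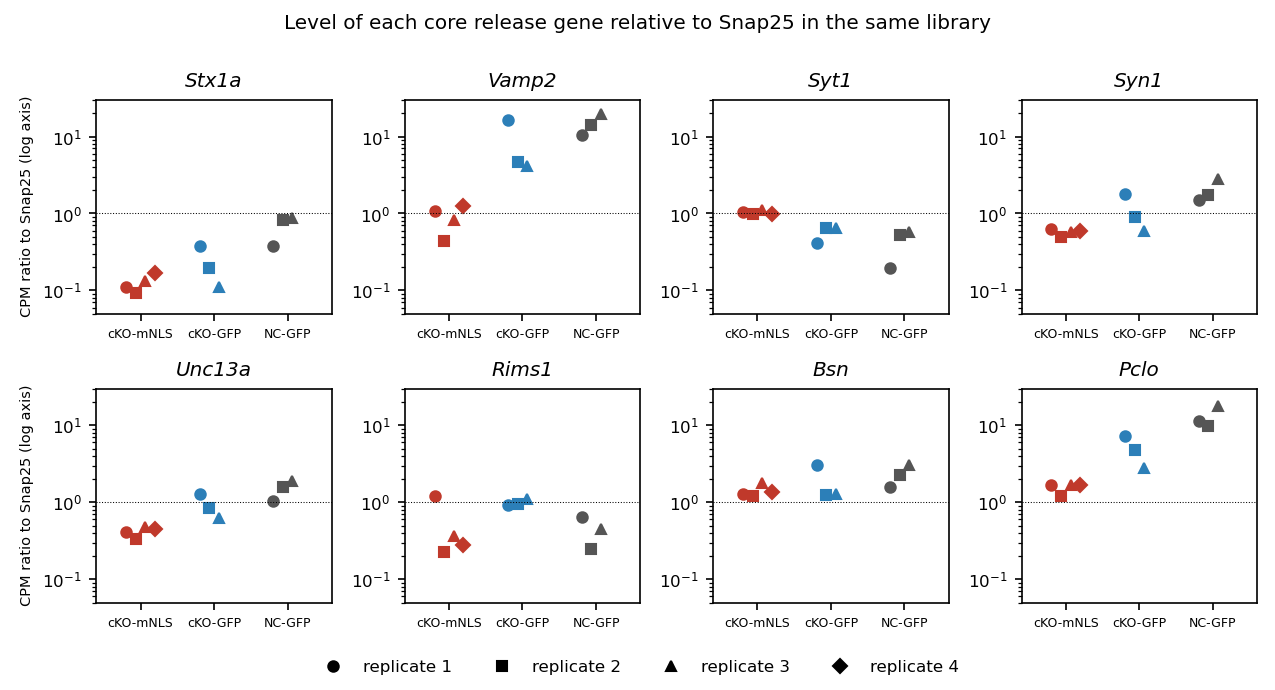
CPM of 8 release genes divided by the CPM of Snap25 in the same library, on a log axis, with the dotted line at 1 and symbols for replicates; groups run cKO-mNLS, cKO-GFP, NC-GFP. Syt1 lies close to the line in the 4 cKO-mNLS pools (0.972 to 1.11), Vamp2 and Pclo fall well below their GFP-vector values, and Rims1 replicate 1 (1.22) stands apart from the other cKO-mNLS pools.

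The rest of the release apparatus was read from 63 further presynaptic genes. In cKO-mNLS against cKO-GFP, 43 of the 63 were higher and 1 was lower, with a median log2 fold change of 1.68 beside -0.01 for all genes tested and with 16.1% of all genes called in either direction. Of 10 SNARE relatives and assembly factors, 7 rose, led by the tomosyn gene Stxbp5l (3.42, SE 0.367, edgeR adjusted p = 0.00143) and including Nsf (1.61), the ATPase that takes SNARE complexes apart. Of 12 calcium sensors and complexins, 9 rose, among them the clamp and activator Cplx2 (2.90), the slow sensor Syt7 (3.42) and rabphilin Rph3a (2.77). Of 17 vesicle proteins, 13 rose, among them the membrane proteins synaptophysin Syp (3.13, SE 0.415, edgeR adjusted p = 0.00183), Sv2b (4.73) and Svop (4.97). Of 10 recycling genes, 6 rose, among them Dnm1 (3.83), the neuronal dynamin that pinches vesicles off, Pacsin1 (1.51) and the clathrin adaptor Snap91 (1.59).

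The active zone list held the exception. Of its 14 genes 8 rose, among them the calcium channel linker Rimbp2 (4.53, SE 0.713, edgeR adjusted p = 0.00294), Rims3 (2.97) and the liprin gene Ppfia2 (2.93). Ppfia4, another liprin gene, stood at 42.9, 62.9, 72.2 and 74.1 CPM in cKO-mNLS, against 133, 88.3 and 144 CPM in cKO-GFP. It fell by 0.95 on the log2 scale (SE 0.21, edgeR adjusted p = 0.0118), with no overlap of the groups. In cKO-GFP against NC-GFP, edgeR called 0 of the 63 genes. In that comparison 5 were higher and 4 lower at an unadjusted p under 0.05, where 9.73% of all genes were higher and 7.08% lower. DESeq2 called 3 higher and 2 lower (3.2% and 3.63% of all genes), and voom called 2 lower (4.03% of all genes). With 63 genes these counts are near or below the shares over all genes.

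Relatives that many cell types use for membrane fusion were set beside them. Of 18 such SNARE and Munc genes, 2 had lower levels in cKO-mNLS than in cKO-GFP, where 7.13% of all genes did, and the other 16 were not called, with a median log2 fold change of -0.24 and a highest value of 0.07. The 2 were Unc13d (-1.52, SE 0.328, edgeR adjusted p = 0.0106), the Munc13 form that serves granule release in blood cells, and Vamp8 (-0.84, SE 0.192, edgeR adjusted p = 0.0134), an endosomal SNARE. The list's count depended on the setting, with 0 to 4 genes lower. The 4 were called by voom, which called 8.12% of all genes lower. In cKO-mNLS against NC-GFP, 2 of the 18 were called higher and 0 lower, where 8.23% and 3.25% of all genes were. Unc13d and Vamp8 were not called there. Vamp8 averaged 19.8 CPM in cKO-mNLS, 35.5 CPM in cKO-GFP and 18.7 CPM in NC-GFP, and Unc13d 8.66, 24.8 and 13.6 CPM in that order. In cKO-GFP against NC-GFP, 0 of the 18 were called, where 1.63% of all genes were. The medians of both lists in cKO-mNLS against cKO-GFP are descriptions and no test of the difference between them was run.

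**Figure D4:**
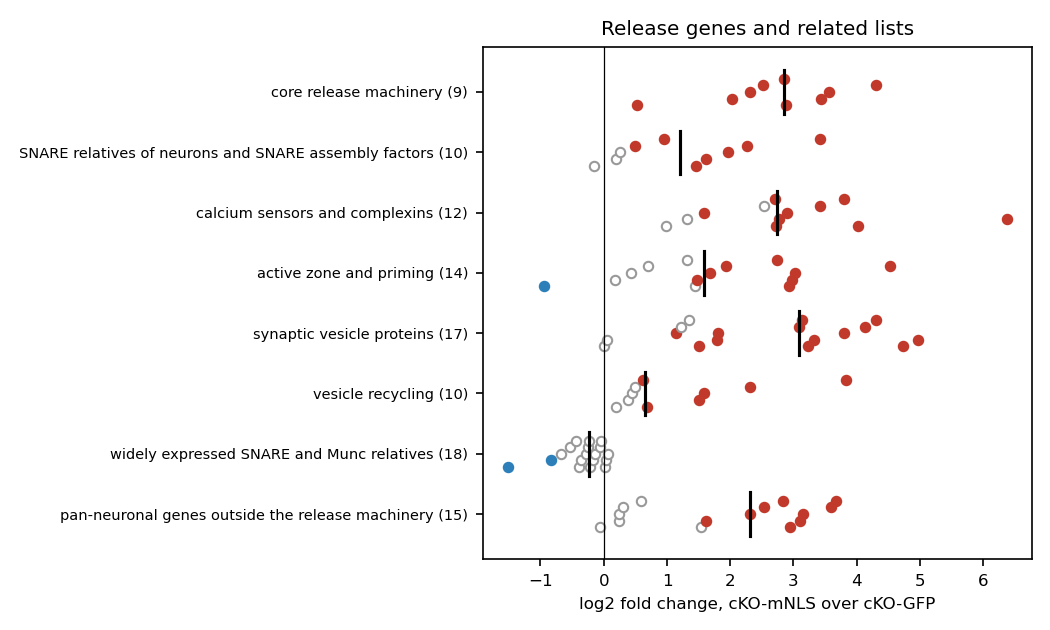
Log2 fold change in cKO-mNLS over cKO-GFP for each gene of 8 lists, with the number of genes in brackets; red points were called higher, blue points lower and open points were not called, and the black bar is the list median. The release genes and the vesicle proteins have medians of 2.85 and 3.09, while the widely expressed relatives sit around -0.24 with 2 genes called lower.

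Neuronal markers outside the release machinery moved with these genes. All 6 excitatory markers rose in cKO-mNLS against cKO-GFP, with a median log2 fold change of 3.62, and 9 of 15 pan-neuronal genes rose, with a median of 2.32. The excitatory list shares Slc17a7 with the vesicle list. Pan-neuronal genes summed to 979 to 1625 CPM in cKO-mNLS, 571 to 854 CPM in cKO-GFP and 739 to 896 CPM in NC-GFP. Mapt, Elavl3 and Map2 made up most of the NC-GFP sum, at means of 361, 217 and 135 CPM. In cKO-mNLS against cKO-GFP, Mapt (0.23) and Elavl3 (-0.06, the lowest of the list) were not called, while the highest value was 3.68 for Nefl. The sum thus hides the spread between these genes. Of 10 microglia markers 6 fell, with sums of 2110 to 5058 CPM in cKO-mNLS and 5040 to 7618 CPM in cKO-GFP. Blood markers fell in 8 of 9 genes, with sums of 185 to 319 CPM in cKO-mNLS and 677 to 1112 CPM in cKO-GFP, and 4 or 5 of them were at 0 in each cKO-mNLS pool. Ptprc made up most of these sums, at a mean of 254 CPM in cKO-mNLS and 586 CPM in cKO-GFP. The globin genes Hbb-bs, Hba-a1 and Hba-a2 averaged 0.398, 0.956 and 0.913 CPM in cKO-mNLS, against 97.2, 59.7 and 86.2 CPM in cKO-GFP. Astrocyte markers summed to 1728 to 4170 CPM in cKO-mNLS, 1102 to 1736 CPM in cKO-GFP and 3655 to 4228 CPM in NC-GFP. With the pan-neuronal mean log2 level as a covariate, edgeR called 0 of the 9 release genes in cKO-mNLS against cKO-GFP, with 0 at an unadjusted p under 0.05, and 0 of all 20379 genes. Under it Snap25 had a log2 fold change of 0.00 (SE 0.49) and Bsn of 1.13 (SE 0.584). The covariate separated the groups, so the release genes and the neuronal level cannot be told apart by this fit.

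A further readout came from the ratio of the authors' counts to their TPM, which gives the average length of the transcripts that each gene's reads were assigned to. It was scaled on 444 genes with a single transcript, whose values had quartiles within 0.955 to 1.06 of their annotated length, and it was chosen after values were seen. Rims1 had average lengths of 2315, 2609, 2894 and 2754 bases in cKO-mNLS, 2433, 2371 and 2407 bases in cKO-GFP and 1651, 1705 and 1941 bases in NC-GFP. The control pools thus lay below every pool of the other 2 groups. The exact permutation test gave p = 0.0286 for cKO-mNLS against NC-GFP and p = 0.1 for cKO-GFP against NC-GFP, each the smallest that these numbers allow, and adjusted values of 0.309 and 0.45 over 27 tests (two-sided). The gene has 11 transcripts in the deposited table, and the 9 found in GENCODE M21 are 1434 to 6446 bases long. NC-GFP had few Rims1 reads, at 1.57 to 5.26 CPM.

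The Stx1a lengths of cKO-mNLS also stood apart, while those of cKO-GFP and NC-GFP overlapped. Its average length was 1539, 1234, 853 and 1601 bases in cKO-mNLS, 446, 633 and 499 bases in cKO-GFP and 745, 842 and 520 bases in NC-GFP. The cKO-mNLS pools lay above both other groups, narrowly so against NC-GFP, and the exact permutation test gave p = 0.0571 against either group (two-sided, adjusted 0.309). Its annotated transcripts fall into long forms of 2114 to 2167 bases and short forms of 550 to 655 bases. The values of 446, 499 and 520 bases lie below the shortest form. Both GFP-vector groups had few Stx1a reads, at 1.81 to 3.39 CPM in cKO-GFP and 3.05 to 5.21 CPM in NC-GFP. In cKO-mNLS Stx1a stood at 10.9 to 26.5 CPM, and the part of read number in these lengths was not tested. Vamp2 lay higher in cKO-mNLS (1699.98 to 1880.01 bases) than in cKO-GFP (1567 to 1693 bases), with the same exact p = 0.0571 and adjusted value. Syn1 lay lower, at 3706 to 3789 bases in cKO-mNLS and 3792 to 3836 bases in cKO-GFP, also at an exact p = 0.0571. Its 2 annotated transcripts are 3209 and 3261 bases long. The Syn1 values all lay above both and spread more widely than the 2 differ, so this separation cannot be read as a change of transcript. Pclo stayed between 16382 and 17473 bases in all 10 libraries. Bsn showed 14474 bases in cKO-GFP replicate 1 and 18561 to 19187 bases elsewhere, above its longest annotated transcript of 15938 bases. The measure thus serves at most for comparison between libraries, where small shifts such as that of Syn1 can be error, and not as a true length.

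**Figure D5:**
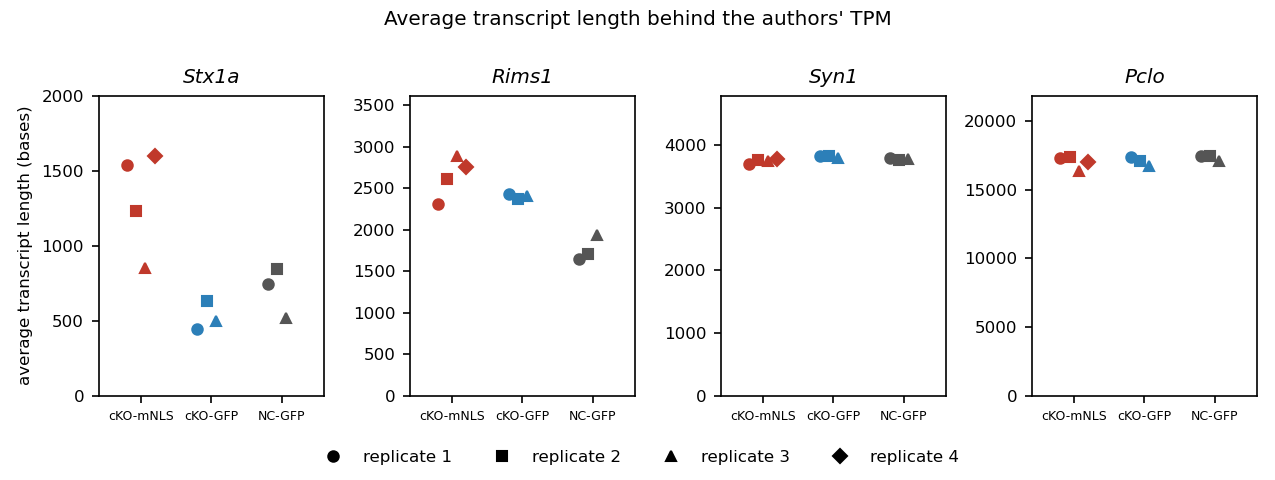
Average transcript length in bases behind the authors' TPM for Stx1a, Rims1, Syn1 and Pclo, 1 symbol per library, on axes that start at 0; groups run cKO-mNLS, cKO-GFP, NC-GFP. Stx1a is longest in cKO-mNLS (853 to 1601 bases), Rims1 is shortest in NC-GFP (1651 to 1941 bases), and Pclo spans 16382 to 17473 bases over all libraries.

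Genes outside the lists were ranked by the likeness of their pattern to the mean log2 CPM of the 9 release genes over the 10 libraries. Among the nearest of 14420 candidates were Cdh12 (Pearson r 0.998), a cadherin gene, Disp2 (0.996) and Tub (0.996). Disp2 averaged 47.2 CPM in cKO-mNLS, 3.71 CPM in cKO-GFP and 2.66 CPM in NC-GFP. The step between cKO-mNLS and the other groups carries these values, and 716 candidates (4.97%) had an r over 0.9. Cdh12 was near 0 in the GFP-vector groups, at a mean of 0.344 CPM in cKO-GFP and 0.0545 CPM in NC-GFP, against 7.24 CPM in cKO-mNLS. With group means removed, r was 0.99 for Cdh12, 0.965 for Disp2 and 0.959 for Tub. These genes had been picked by r over the same libraries, and no share over all candidates was taken, so these values are descriptions only.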

How the data were processed

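Libraries were made from 1 ng of RNA of GFP-sorted cells with the SMART-Seq Stranded kit, as the labels' protocols state. The authors deposited an estimated count and a TPM value per gene and library, per the file headers. Of the estimated counts the authors deposited, 5.84% were not whole, with a tolerance of 1e-06, and all were rounded. The deposited TPM values, which are per length and library total, served for levels and lengths and not for the tests of expression. The submitters' processing notes name DRAGEN and GRCm38/mm10. Its version, the annotation release and the counting settings, strand included, were not given in the sources used.

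Expression was tested with edgeR 4.0.16 in R 4.3.3 (quasi-likelihood F test), using TMM scaling, group-wise filtering to 20379 genes (at least 99.8% of each library's counts) and robust estimation, in 1 model of 3 groups with 7 residual degrees of freedom. The common biological coefficient of variation was 0.406. Genes were called at a Benjamini-Hochberg adjusted p under 0.05 over all genes tested. CPM used TMM-scaled totals, log2 CPM an offset of 0.5, and SE is the log2 fold change divided by the root of F. Alternatives were DESeq2 1.42.0, limma 3.58.1 (voom with quality weights), other scalings and filters, fits of 2 groups, a replicate block, a pan-neuronal covariate and each library left out. The steps were tested on simulated counts.

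Named genes were all 9 members, up to 3 called genes of smallest p per direction in each further list, the 5 genes nearest in pattern, genes that overlap members, and Tardbp. Some genes that this rule names are not reported here. The members and all lists, drawn from general knowledge, were chosen with earlier results of these data known, and no list was tested as a set. Granule markers (in cKO-mNLS against cKO-GFP, 4 of 6 higher) and oligodendrocyte precursor markers (2 of 8 lower) were read too. Inhibitory (6 of 8 tested), endothelial and oligodendrocyte markers had no call by edgeR in that comparison (at an unadjusted p under 0.05, 1 endothelial marker was higher and 0 of the others differed), and 1 of 10 astrocyte markers was higher. Promoter sequences are from RefSeq, and the 8-letter NRF1 core was chosen as a motif after these promoters had been seen.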

Additional observations from a re-analysis of the deposited data

How the results depend on the processing

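Of the 9 genes under 19 alternatives, 154 values for cKO-mNLS against cKO-GFP, 157 for cKO-mNLS against NC-GFP and 162 for cKO-GFP against NC-GFP kept their direction and their side of the threshold. With the pan-neuronal covariate, edgeR called 0 genes, 0 release genes and 0 of the 63 further genes in cKO-mNLS against cKO-GFP, with 387 genes higher and 623 lower at an unadjusted p under 0.05. Against NC-GFP it likewise called 0, 0 and 0, with 408 higher and 502 lower at that p. Signs turned under it for Pclo in cKO-mNLS against cKO-GFP (-0.13), for Snap25 (-0.051), Unc13a (-0.48) and Bsn (-0.081) in cKO-GFP against NC-GFP, and for Snap25 (-0.048), Unc13a (-0.35) and Pclo (-1.28) in cKO-mNLS against NC-GFP. The cause was not tested, and neuronal level and group cannot be told apart. In cKO-GFP against NC-GFP the 333 genes called became 1391 with DESeq2, 1506 with voom, 754 with 2 groups, 176 with the replicate block and 175 with the covariate. There DESeq2 called 2 release genes, and of the further 63 it called 5, voom 2, and 1 each was called with size factors, library totals, no filter, the stricter filter, 2 groups, the replicate block and the covariate. In cKO-mNLS against NC-GFP DESeq2 called 3567 genes, against 2341 with edgeR.

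Leaving out each library gave 1172 to 3629 genes called in cKO-mNLS against cKO-GFP (1172 without cKO-GFP replicate 3, 1623 without replicate 1), 61 to 755 in cKO-GFP against NC-GFP (61 without NC-GFP replicate 3, 93 without replicate 2, 144 without replicate 1, 141 without cKO-GFP replicate 1, 755 without replicate 2, 68 without replicate 3) and 1217 to 2601 in cKO-mNLS against NC-GFP (1217 without NC-GFP replicate 3, 1255 without replicate 2, 1521 without replicate 1). Release genes called were 7 to 9, 0 to 0 and 7 to 9 in that order, and further genes 33 to 46, 0 to 1 and 32 to 41. In cKO-GFP against NC-GFP, Syn1 turned to 0.04 without NC-GFP replicate 3, 0.07 without cKO-GFP replicate 1 and 0.092 without cKO-GFP replicate 3, and Unc13a to -0.10 without cKO-GFP replicate 2. Over all libraries left out, Syn1 lay between -0.31 and 0.092 and Unc13a between -0.10 and 0.42. Rims1 in that comparison was 2.84 without NC-GFP replicate 1. Same-numbered libraries did not deviate together (r -0.576 to 0.192 over 9 pairs, and 1 of 10 libraries was closest to its own number), so the replicate block shares only a number. Under it 8 release genes were called in cKO-mNLS against cKO-GFP. Without the low-count filter the median of all genes moved to 0.14 in that comparison. Depth limits Rims1, Syt1 and Stx1a most, whose NC-GFP levels were a few CPM.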
